A study of Mus musculus with 19 samples.

Results

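Voltage-gated calcium and sodium channels are the proteins that let calcium and sodium ions into a neuron when its membrane depolarises. The genes described here are all those whose RefSeq symbol begins with Cacna, Cacnb, Cacng or Scn followed by a number and that had a probe well above background on at least 6 of 19 arrays. The array carried 40 such genes, and 34 of them passed, out of 25599 genes tested in all. The 6 that did not pass were Cacna1f, Cacng1, Scn7a, Scn9a, Scn10a and Scn11a, the best probe of which was well above background on 0 to 3 arrays.

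The study measured hippocampal RNA of mice on Agilent whole-genome arrays, in 3 groups of animals that were all 8 months old at the end. Wild-type (WT) littermates received vehicle (n = 6), APP/PS1 mice received vehicle (n = 7) and APP/PS1 mice received urolithin A (UA, n = 6). UA is a metabolite that gut bacteria form from plant ellagitannins, and it is known as an inducer of mitophagy, the removal of damaged mitochondria. The daily dose was 200 mg per kg, dissolved in DMSO and gavaged for 2 months from 6 months of age, and vehicle groups were gavaged with DMSO alone. APP/PS1 mice develop amyloid plaques, and in this line the mouse prion promoter drives the transgenes, so that their expression follows that promoter and the mouse's own copies stay in place. No WT mice on UA were among these groups, so the UA mice differ from WT by both genotype and treatment. Group sizes equal the numbers of animals in the design text, and each array was taken as 1 mouse.

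A voltage-gated sodium channel is built from 1 large pore subunit with smaller beta subunits beside it, and it carries the upstroke of the action potential. A high-voltage-activated calcium channel has a pore subunit (L-type or Cav2) together with an intracellular beta subunit and an alpha2delta subunit that carry it to the membrane, while T-type pores open near the resting potential and work without these partners. In the hippocampus Cav2 channels trigger transmitter release, L-type channels couple activity to gene expression, T-type channels shape burst firing, and most neuronal gamma subunits are better known as auxiliary subunits of AMPA receptors (TARPs).

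Levels are log2 intensities (green, background-subtracted and dye-normalized) from which each array's 75th percentile was subtracted, and differences are between group means on that scale, from 1 limma fit over all 19 arrays with Benjamini-Hochberg adjustment over all 25599 genes. An adjusted p below 0.05 is named a call. A level belongs to its probe and is not set against another gene's. Prnp, whose promoter drives the transgenes, reached at most 7.05 on WT arrays and at least 8.47 and 8.32 on APP/PS1 vehicle and UA arrays, so every array sat with its labelled genotype. Between 51.4% and 59.4% of an array's probes passed as well above background, and the 75th percentile of intensity lay between 450 and 1199. Of the 3 slides, the first carried the 6 WT arrays with 2 from APP/PS1 vehicle, the second carried the other 5 from APP/PS1 vehicle with 3 from UA, and the last carried the remaining 3 UA arrays. By sex-linked transcripts, 1 WT, 3 APP/PS1 vehicle and 1 UA mouse were female.

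The hippocampal markers were present on every array, but the dissections differed in what else they held. The summed level of 6 choroid plexus markers ran from 0.36 to 5.04 on 9 arrays and from 8.96 to 10.07 on the other 10. The higher range held 1 of 6 WT arrays (array 3), 5 of 7 APP/PS1 vehicle arrays and 4 of 6 UA arrays. Results below are given with these values where they touch them. In tissue RNA of this kind, fewer cells of a type and less RNA per cell cannot be told apart.

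Between APP/PS1 vehicle and WT mice, 2 of the 34 channel genes were called and both were lower in APP/PS1: Cacna1i, a T-type calcium channel pore, and Scn2b, a sodium channel beta subunit. Over all genes tested, 5.07% were called in this comparison and 2.38% were called as lower, so the share of channel genes called was near the background. The differences of the family lay below 0 in 28 of 34 genes, with a median of -0.22 and a range of -0.51 to 0.46, against a median of 0.003 and 49.6% below 0 over all genes tested. At an unadjusted p under 0.05, 10 channel genes were lower and 1 was higher, while 24.0% of all genes passed in either direction. No channel gene had APP/PS1 vehicle arrays that all lay outside the WT range on one side, a separation that 2.34% of all genes tested showed.

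**Figure D1:**
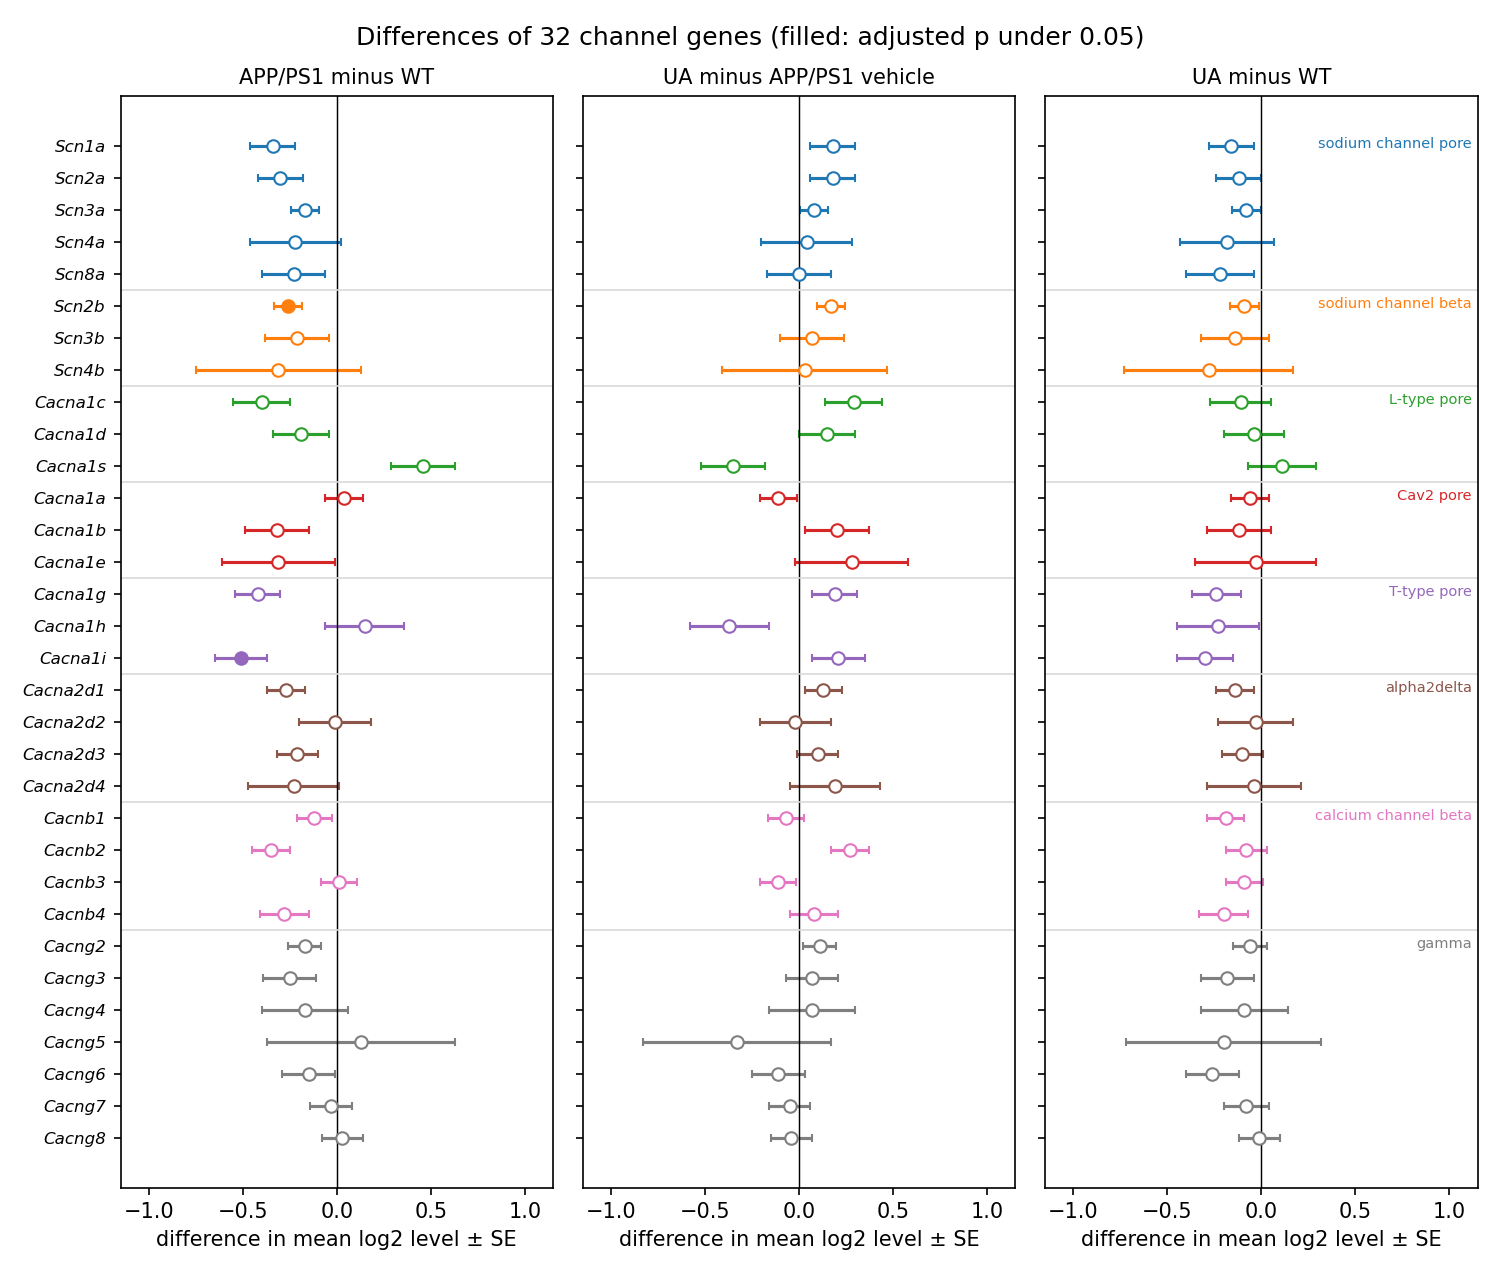
Difference in mean log2 level (x axis, with SE as the bar) of each of 32 channel genes (y axis, grouped and coloured by role) for APP/PS1 vehicle against WT, UA against APP/PS1 vehicle and UA against WT. Filled points are the 2 called genes, Cacna1i and Scn2b in the first panel; 26 of 32 points lie below 0 there, 10 of 32 in the second panel and 31 of 32 in the third.

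The promoters of the 2 called genes are shown because these are the members that passed the test. They are the 250 bases before the annotated start of each gene in RefSeq (GRCm38.p6), 5′ to 3′ on the plus strand, in lower case throughout because none of the motifs searched was found in them. Cacna1i lies at chr15:80286988-80287237 and Scn2b at chr9:45117626-45117875.
Cacna1i: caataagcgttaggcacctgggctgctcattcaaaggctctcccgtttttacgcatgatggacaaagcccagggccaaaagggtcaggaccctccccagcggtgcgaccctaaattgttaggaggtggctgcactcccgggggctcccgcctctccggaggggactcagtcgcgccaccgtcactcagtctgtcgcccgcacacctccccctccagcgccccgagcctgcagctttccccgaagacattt
Scn2b: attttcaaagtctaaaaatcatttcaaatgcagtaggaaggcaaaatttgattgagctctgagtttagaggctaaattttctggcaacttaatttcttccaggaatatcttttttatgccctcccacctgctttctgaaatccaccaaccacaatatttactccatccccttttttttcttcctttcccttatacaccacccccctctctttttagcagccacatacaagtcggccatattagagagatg
The Cacna1i window is 62.4% G and C and the Scn2b window 38.4%, against a median of 59.8% over 36 windows of 25 members and 52.4% over 32851 windows of all genes. The letters searched, on both strands, were the GC box GGGCGG, the TATA box TATAAA, the cAMP response element TGACGTCA, the E-box CACGTG and TTCAGCACC, the first part of the REST-binding RE1 element. The GC box stood in 13 of 36 member windows and in 32.7% of all windows, and the TATA box in 2 of 36 (Cacna1d and Scn2a) and in 12.4% of all. The others stood in 0 of 36 member windows and in 1.55%, 6.02% and 0.301% of all windows, in the order given. A missing match says only that these letters are not in the window. Windows for Cacna1a, Cacna1g, Cacna1h, Cacna2d4, Cacng4, Scn3a and Scn3b were not analysed here.

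The 6 sodium channel pores tested all had differences below 0 between APP/PS1 vehicle and WT, with a median of -0.26, and none was called. Scn1a encodes Nav1.1, the channel on which fast-spiking interneurons depend, and its levels ran from 3.14 to 3.57 in WT (median 3.46), 2.78 to 3.49 in APP/PS1 vehicle (median 3.03) and 2.97 to 3.45 in UA (median 3.29). The difference between APP/PS1 vehicle and WT was -0.34 (SE 0.12, adjusted p = 0.0970) and 5 of 7 APP/PS1 vehicle arrays lay below the WT mean. Arrays 2 and 5 of the APP/PS1 vehicle group sat inside the upper part of the WT range and the other 5 below every WT array. A second Scn1a probe gave -0.36 (SE 0.086, adjusted p = 0.0281 when every probe was tested alone) and another gave -0.17.

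Scn2a encodes Nav1.2, found on the axons of excitatory neurons, and ran from 3.67 to 4.17 in WT (median 4.05), 3.26 to 4.15 in APP/PS1 vehicle (median 3.75) and 3.78 to 3.97 in UA (median 3.90). Its difference between APP/PS1 vehicle and WT was -0.30 (SE 0.12, adjusted p = 0.135). The groups overlapped, since APP/PS1 vehicle array 5 stood near the top of the WT range and WT array 3, at 3.67, below the other WT arrays. Scn2a had 3 further probes, with differences of 0.02, -0.17 and -0.11. Scn3a (Nav1.3, a pore most abundant before birth) and Scn8a (Nav1.6, the pore of the nodes of Ranvier and the axon initial segment) differed by -0.17 and -0.23, and Scn4a (Nav1.4, the skeletal muscle pore) by -0.22. Against APP/PS1 vehicle, UA arrays were at 0.18 (SE 0.12) for both Scn1a and Scn2a (adjusted p = 0.469 and 0.465), the 2 sodium pores of smallest p in that comparison.

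The sodium channel beta subunits were all below 0 as well (median -0.24). Scn2b encodes beta2, which is linked to the pore by a disulphide bond and is a substrate of the beta-secretase BACE1. Scn2b levels ran from 4.81 to 5.08 in WT (median 5.0), 4.49 to 4.91 in APP/PS1 vehicle (median 4.69) and 4.72 to 5.06 in UA (median 4.89). APP/PS1 vehicle was lower than WT by 1.20-fold, a difference of -0.26 (SE 0.074, adjusted p = 0.0499), with 7 of 7 arrays below the WT mean. The groups overlapped only through WT array 3, at 4.81, which lay below APP/PS1 vehicle arrays 4 (4.83) and 5 (4.91). Against APP/PS1 vehicle the UA arrays were at 0.17 (SE 0.074, adjusted p = 0.273), with an unadjusted p of 0.0312 and 6 of 6 arrays above the APP/PS1 vehicle mean, and against WT at -0.09 (SE 0.077, adjusted p = 0.754).

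Scn3b (beta3, another beta subunit) ran from 4.66 to 5.43 in WT (median 4.94), 4.31 to 5.20 in APP/PS1 vehicle (median 4.71) and 4.47 to 5.33 in UA (median 4.73), and UA arrays were at 0.07 (SE 0.17, adjusted p = 0.870) against APP/PS1 vehicle. The range of each group covered most of the range of the others.

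The T-type pores had the most negative median of the role classes (-0.42 over 3 genes). Cacna1i encodes Cav3.3, the slowest T-type channel. Its levels ran from 2.12 to 2.62 in WT (median 2.48), 1.53 to 2.44 in APP/PS1 vehicle (median 1.96) and 1.89 to 2.43 in UA (median 2.10). APP/PS1 vehicle was 1.42-fold lower than WT, a difference of -0.51 (SE 0.14, adjusted p = 0.0447), with 6 of 7 arrays below the WT mean. Arrays 1, 3, 4 and 7 of the APP/PS1 vehicle group, at 1.64, 1.59, 1.53 and 1.96, lay below every WT array, whereas array 5, at 2.44, lay above the WT mean of 2.43. UA arrays were at 0.21 (SE 0.14, adjusted p = 0.483) against APP/PS1 vehicle and at -0.30 (SE 0.15, adjusted p = 0.570) against WT, with 6 of 6 below the WT mean. A second, dimmer Cacna1i probe did not show the genotype difference, at 0.05 (SE 0.19, adjusted p = 0.904), so the call rests on the brighter probe. In UA against APP/PS1 vehicle that dimmer probe gave -0.29 (SE 0.19, limma adjusted p = 0.492), opposite in sign to the brighter probe.

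Cacna1g encodes Cav3.1, the T-type channel of thalamic relay neurons, and missed the threshold narrowly. It ran from 0.26 to 0.99 in WT (median 0.84), 0.07 to 0.76 in APP/PS1 vehicle (median 0.36) and 0.37 to 0.76 in UA (median 0.53). The difference between APP/PS1 vehicle and WT was -0.42 (SE 0.12, adjusted p = 0.0534), with 7 of 7 arrays below the WT mean, and its other probes gave -0.27 and -0.39. WT array 3, at 0.26, lay among the APP/PS1 vehicle arrays and well below the other WT arrays. Cacna1h encodes Cav3.2 and had a mean difference of 0.15 (SE 0.21, adjusted p = 0.690), though 4 of 7 APP/PS1 vehicle arrays lay below the WT mean. Its other probes gave -0.10 and 0.14. On the brightest probe, levels ran from -0.74 to -0.35 in WT (median -0.68), -0.99 to 0.76 in APP/PS1 vehicle (median -0.72) and -0.99 to -0.72 in UA (median -0.85). Within APP/PS1 vehicle, array 1 (0.76) and array 3 (-0.11) stood above all UA and WT arrays, and UA arrays were at -0.37 (SE 0.21, adjusted p = 0.395) against that group.

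**Figure D2:**
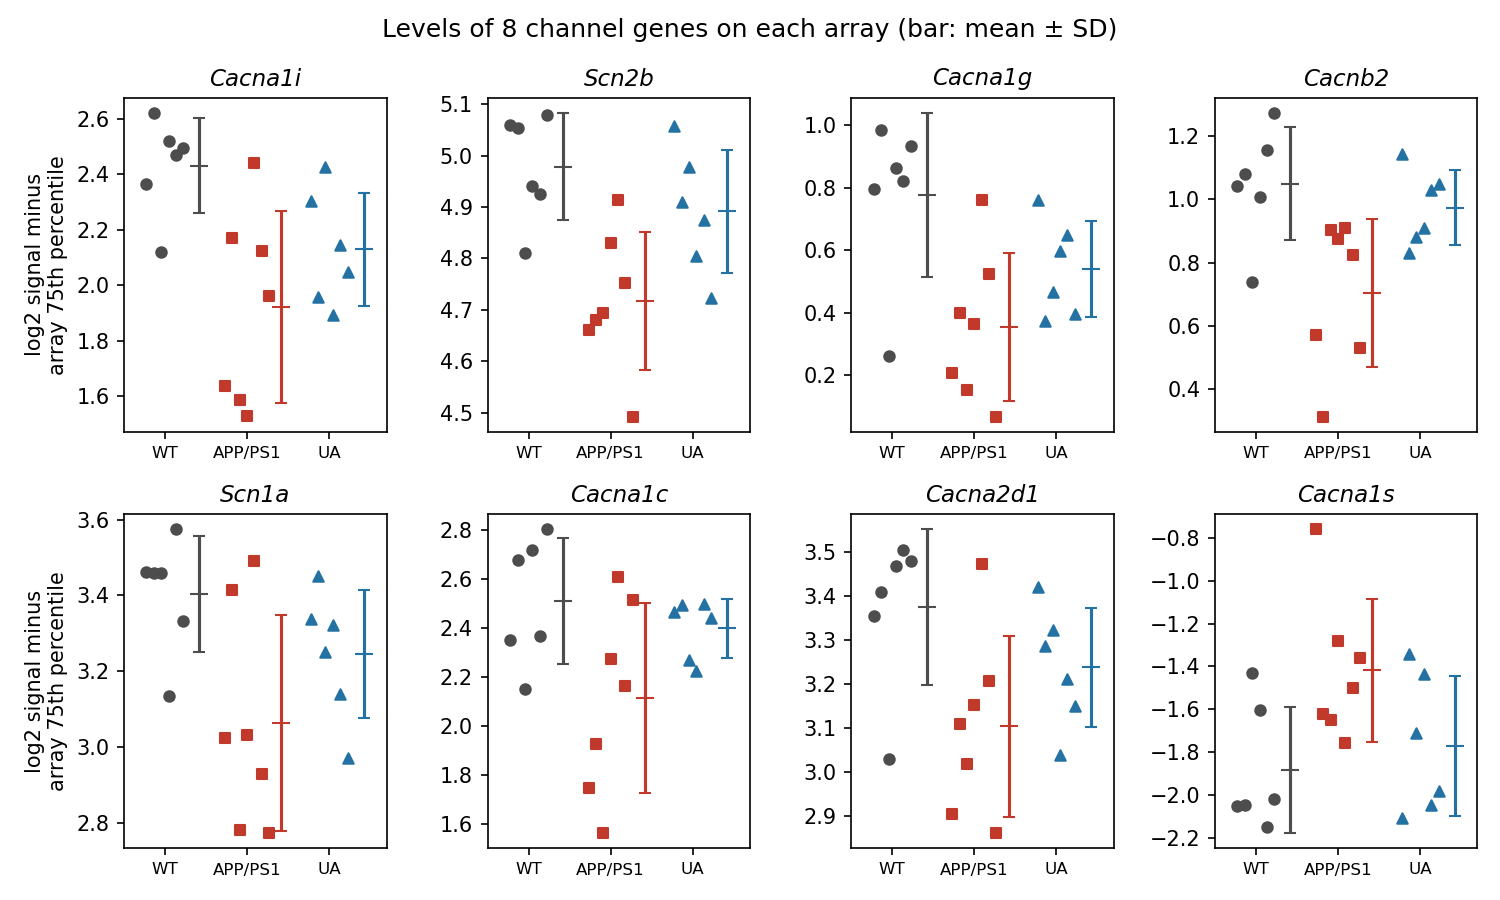
Level of 8 channel genes on each array (y axis, log2 signal minus the array's 75th percentile) for 6 WT, 7 APP/PS1 vehicle and 6 UA arrays, with mean ± SD beside each group. Cacna1i and Scn2b are the called genes; 1 low WT array and 1 high APP/PS1 vehicle array recur in several panels, and for Cacna1s the APP/PS1 vehicle arrays lie high.

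Among the L-type pores, Cacna1c and Cacna1s had differences of opposite sign. Cacna1c encodes Cav1.2, the main L-type channel of forebrain neurons, and ran from 2.15 to 2.80 in WT (median 2.52), 1.56 to 2.61 in APP/PS1 vehicle (median 2.16) and 2.22 to 2.50 in UA (median 2.45). Its difference between APP/PS1 vehicle and WT was -0.40 (SE 0.15, adjusted p = 0.130), and UA arrays were at 0.29 (SE 0.15, adjusted p = 0.380) against APP/PS1 vehicle, with 6 of 6 above that group's mean. The UA arrays lay within 2.22 to 2.50, a narrower band than either vehicle group. The other Cacna1c probes gave -0.29 and -0.88 between APP/PS1 vehicle and WT, the latter well above background on 6 arrays. Cacna1s encodes Cav1.1, the voltage sensor of skeletal muscle, and had the largest positive difference of the family.

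Cacna1s ran from -2.15 to -1.43 in WT (median -2.03), -1.76 to -0.76 in APP/PS1 vehicle (median -1.50) and -2.10 to -1.34 in UA (median -1.84). The difference between APP/PS1 vehicle and WT was 0.46 (SE 0.17, adjusted p = 0.112), with 7 of 7 arrays above the WT mean, and UA arrays were at -0.35 (SE 0.17, adjusted p = 0.335) against APP/PS1 vehicle. The highest WT array was array 3, at -1.43, inside the APP/PS1 vehicle range. Cacna1d (Cav1.3, which opens at lower voltages than Cav1.2) differed by -0.19 and 0.15 in these comparisons, and its second probe by 0.21 and -0.44.

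The Cav2 pores, which open at release sites, gave no call. Cacna1b (Cav2.2, the N-type channel) ran from 1.35 to 2.27 in WT (median 2.01), 1.16 to 2.20 in APP/PS1 vehicle (median 1.54) and 1.56 to 2.08 in UA (median 1.69). The difference between APP/PS1 vehicle and WT was -0.32 (SE 0.17, adjusted p = 0.241) and UA arrays were at 0.20 (SE 0.17, adjusted p = 0.570) against APP/PS1 vehicle. Its remaining probes showed -0.07 and -0.02 between APP/PS1 vehicle and WT. Cacna1a (Cav2.1, the P/Q-type channel) ran from 2.54 to 2.76 in WT (median 2.62), 2.43 to 2.95 in APP/PS1 vehicle (median 2.75) and 2.29 to 2.87 in UA (median 2.61), and its difference between genotypes was 0.04 (SE 0.10, adjusted p = 0.809). UA arrays were at -0.11 (SE 0.10, adjusted p = 0.617) for Cacna1a against APP/PS1 vehicle, and the 3 groups covered much the same range.

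Cacna1e (Cav2.3, the R-type channel) ran from -2.06 to -1.08 in WT (median -1.22), -3.55 to -0.95 in APP/PS1 vehicle (median -1.52) and -1.61 to -1.14 in UA (median -1.38). The wide APP/PS1 vehicle range came from array 3, at -3.55, where the probe was not well above background. The difference between APP/PS1 vehicle and WT was -0.31 (SE 0.30, adjusted p = 0.551).

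All 4 alpha2delta genes had differences below 0 between APP/PS1 vehicle and WT (median -0.22). Cacna2d1 (alpha2delta-1, the main target of gabapentin) ran from 3.03 to 3.50 in WT (median 3.44), 2.86 to 3.47 in APP/PS1 vehicle (median 3.11) and 3.04 to 3.42 in UA (median 3.25). APP/PS1 vehicle against WT gave -0.27 (SE 0.10, adjusted p = 0.115) with 6 of 7 arrays below the WT mean, and UA against APP/PS1 vehicle gave 0.13 (SE 0.10, adjusted p = 0.526). WT array 3, at 3.03, was again apart from the other WT arrays, and APP/PS1 vehicle array 5 stood inside their range. Further Cacna2d1 probes showed -0.22 and -0.02 between genotypes.

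Cacna2d3 (alpha2delta-3) ran from 2.69 to 3.23 in WT (median 3.1), 2.64 to 3.15 in APP/PS1 vehicle (median 2.80) and 2.73 to 3.28 in UA (median 2.87), with a difference between genotypes of -0.21 (SE 0.11, adjusted p = 0.234) and between UA and APP/PS1 vehicle of 0.10 (SE 0.11, adjusted p = 0.646). Cacna2d2 differed by -0.01, and Cacna2d4 by -0.23 on a probe that was well above background on 4 WT arrays, on 2 of the APP/PS1 vehicle group and on 5 treated with UA.

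Of the calcium channel beta subunits, Cacnb2 stood nearest the threshold. Cacnb2 is the beta subunit best known from cardiac L-type channels and is also made in neurons. It ran from 0.74 to 1.27 in WT (median 1.06), 0.31 to 0.91 in APP/PS1 vehicle (median 0.82) and 0.83 to 1.14 in UA (median 0.97). The difference between APP/PS1 vehicle and WT was -0.35 (SE 0.10, adjusted p = 0.0609), with 7 of 7 arrays below the WT mean. UA arrays were at 0.27 (SE 0.10, adjusted p = 0.235) against APP/PS1 vehicle (unadjusted p = 0.0190, 6 of 6 above that group's mean) and at -0.08 (SE 0.11, adjusted p = 0.862) against WT. APP/PS1 vehicle arrays 1, 2 and 7 lay below all arrays of the other groups, and the remaining 4 overlapped with them. A second, dimmer Cacnb2 probe gave -0.17 between genotypes (SE 0.18, limma adjusted p = 0.614 when every probe was tested alone). In UA against APP/PS1 vehicle that probe gave 0.25 (SE 0.18).

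Cacnb4, the beta subunit partnered mainly with Cav2.1, ran from 1.60 to 1.97 in WT (median 1.84), 1.18 to 1.87 in APP/PS1 vehicle (median 1.51) and 1.23 to 1.90 in UA (median 1.70). Its difference between genotypes was -0.28 (SE 0.13, adjusted p = 0.197), and a second probe of nearly the same brightness gave -0.40. Cacnb3 ran from 2.37 to 2.73 in WT (median 2.59), 2.34 to 2.92 in APP/PS1 vehicle (median 2.54) and 2.19 to 2.58 in UA (median 2.51), with UA arrays at -0.11 (SE 0.096, adjusted p = 0.596) against APP/PS1 vehicle and a genotype difference of 0.01. Cacnb1, the skeletal muscle type, differed by -0.12 between genotypes.

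The gamma class had a median difference of -0.15 between APP/PS1 vehicle and WT and -0.04 between UA and APP/PS1 vehicle, and no member passed even an unadjusted p of 0.05. Cacng2 (stargazin, the prototype TARP) ran from 2.67 to 2.97 in WT (median 2.78), 2.44 to 2.91 in APP/PS1 vehicle (median 2.57) and 2.51 to 3.03 in UA (median 2.71). It differed by -0.17 (SE 0.088, adjusted p = 0.245) between genotypes and by 0.11 (SE 0.088, adjusted p = 0.551) between UA and APP/PS1 vehicle. Cacng3 (another TARP) ran from 0.53 to 0.74 in WT (median 0.65), -0.25 to 0.78 in APP/PS1 vehicle (median 0.42) and 0.28 to 0.78 in UA (median 0.44), a genotype difference of -0.25 (SE 0.14, adjusted p = 0.282). APP/PS1 vehicle array 7, at -0.25, was the lowest Cacng3 array, while arrays 2, 3 and 5 of that group lay within or just above the WT range.

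Cacng6, a gamma subunit of calcium channels that is not a TARP, ran from -3.15 to -2.47 in WT (median -2.87), -3.50 to -2.58 in APP/PS1 vehicle (median -3.05) and -3.30 to -2.88 in UA (median -3.13), and UA arrays were at -0.11 (SE 0.14, adjusted p = 0.713) against APP/PS1 vehicle. Cacng8, the TARP most typical of the hippocampus, differed by 0.03 and -0.04 in these comparisons, with SEs of 0.11 each. Cacng4 and Cacng7 differed by -0.17 and -0.03 between genotypes.

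Choroid plexus content differed among arrays and was unevenly spread over the groups. Its higher range held 1 of 6 WT and 5 of 7 APP/PS1 vehicle arrays, so it cannot be told apart from genotype here. All 6 choroid plexus markers were higher on average in APP/PS1 vehicle than in WT, none of them called. The summed level ran from 2.91 to 9.80 in WT, 0.36 to 10.07 in APP/PS1 vehicle and 1.82 to 9.60 in UA. The median over the 34 channel genes of each array's distance from the WT mean was -0.02 to 0.06 in WT, -0.31 to 0.07 in APP/PS1 vehicle and -0.26 to -0.04 in UA. APP/PS1 vehicle array 5, at 0.07, had a choroid plexus level of 4.21, and array 7, at -0.31, had the highest, 10.07. Other arrays departed from this order. APP/PS1 vehicle array 3 was at -0.30 with the lowest choroid plexus level of all 19 arrays, 0.36. UA array 3, at -0.13 with a level of 3.35, lay below UA array 2, at -0.06 with 9.39. WT array 3, at -0.02, was the WT array with a level of 9.80. It was the lowest of its group for Cacna1i, Scn2b and 10 other channel genes, and the highest for 7.

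With the choroid plexus level as a covariate, a fit added after these values were seen, the differences were -0.44 for Cacna1i (limma adjusted p = 0.0855) and -0.20 for Scn2b (adjusted p = 0.0877). The median over the family was then -0.20, and 0 members were called of 1129 genes called in all. Both calls were thus lost with this term, and the family median without it was -0.22. Most APP/PS1 vehicle arrays and few WT arrays had high choroid plexus levels, so this fit cannot separate genotype from choroid plexus content.

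**Figure D3:**
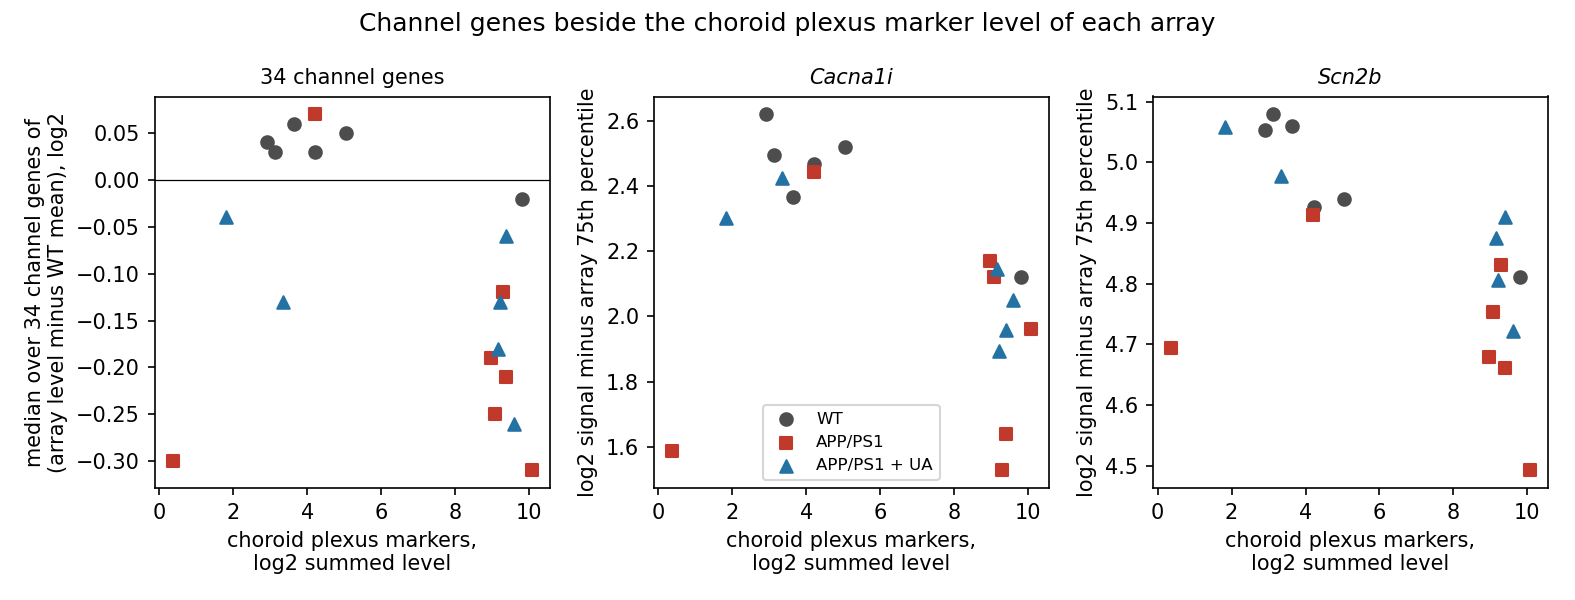
Median distance of 34 channel genes from the WT mean (left) and levels of Cacna1i and Scn2b (middle, right), on log2 scales, against the summed level of 6 choroid plexus markers on each of 19 arrays. The 10 arrays at 8.96 or more include 1 WT array, which has the lowest Cacna1i and Scn2b levels of its group; among the other 9, APP/PS1 vehicle array 3 lies far left and low.

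Marker lists of neurons differed in direction. Of 8 neuronal markers 7 were lower on average in APP/PS1 vehicle than in WT, with a median difference of -0.29 and none called, and their summed level ran from 9.78 to 10.20 in WT, 9.56 to 10.25 in APP/PS1 vehicle and 9.75 to 10.17 in UA. Of 8 interneuron markers 7 lay below 0 (median -0.29, none called), on summed levels of 7.84 to 8.26, 6.98 to 7.86 and 7.68 to 8.10 in the same order. Hippocampal pyramidal cell markers lay on both sides of 0, with 3 of 5 below it, a median of -0.08, none called and summed levels of 5.53 to 5.67, 5.47 to 5.85 and 5.45 to 5.76. Granule cell markers split evenly, with 2 of 4 below 0, a median of 0.01, none called and summed levels of 4.31 to 4.62, 3.95 to 4.48 and 4.27 to 4.55. All 4 measured cortical markers of 5 listed lay below 0 (median -0.37, none called), on summed levels of 2.46 to 2.99, 1.59 to 2.74 and 2.32 to 2.71. Astrocyte markers lay above 0 in 5 of 5 genes, with 2 called higher, a median of 0.24 and summed levels of 5.26 to 5.49, 5.62 to 5.92 and 5.59 to 5.88. Microglial markers were higher, with 3 of 5 called and summed levels of 5.15 to 5.53, 5.70 to 6.03 and 5.41 to 5.83. The part of these cell types in the channel differences was not tested.

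The calls between genotypes depended on single arrays. Leaving out APP/PS1 vehicle array 5 raised the count from 2 to 7, all lower and adding Cacna1g, Cacna2d1, Cacnb2, Scn1a and Scn2a. Leaving out WT array 3 raised it to 5. Calls over all genes tested rose as well, from 1298 to 2035 and 2262 in that order. Of the 19 fits without 1 array, 13 called no channel gene. Within slide 1, which held both genotypes, Cacna1i was at -0.53 and Scn2b at -0.31 (adjusted p = 0.174 and 0.172, 2 APP/PS1 vehicle arrays). Those 2 arrays had high choroid plexus levels, 9.39 and 8.96, as did only array 3 (9.80) of the WT arrays.

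UA against APP/PS1 vehicle asks whether treatment altered the channel transcripts in the transgenic mice. In that comparison limma called 0 of 34 channel genes and 0 of 25599 genes in all (0%). The family's differences lay above 0 in 24 of 34 genes, with a median of 0.07 and a range of -0.37 to 0.29, against a median of -0.007 over all genes tested. At an unadjusted p under 0.05 on the brightest probes, 2 channel genes were higher, Cacnb2 and Scn2b, and 0 lower, where 15.5% of all genes passed in either direction. A dimmer Cacna1a probe gave -0.46 (limma unadjusted p = 0.00791, adjusted p = 0.204 when every probe was tested alone). In 0 of 34 channel genes did the UA and APP/PS1 vehicle ranges separate (0.879% of all genes). The genotype comparison and this one share the APP/PS1 vehicle arrays and are given side by side only. Within slide 2, which held both groups, Cacnb2 was at 0.14 and Scn2b at 0.25, each with an adjusted p of 0.904.

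By role, the UA difference from APP/PS1 vehicle had medians of 0.12 over the sodium pores, 0.05 over the sodium beta subunits, 0.15 over the L-type pores, 0.20 over the Cav2 pores, 0.19 over the T-type pores, 0.12 over alpha2delta and 0.00 over the calcium channel beta subunits. The members furthest below 0 were Cacna1h (-0.37), Cacna1s (-0.35) and Cacng5 (-0.33), and the furthest above were Cacna1c (0.29), Cacna1e (0.28) and Cacnb2 (0.27).

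Against WT, UA arrays gave 0 called channel genes (0.0938% of all genes were called). On the brightest probes 0 passed an unadjusted p under 0.05, where 8.83% of all genes did, and 0 of 34 had separate ranges (1.05% of all genes). Dimmer probes of Scn1a and Scn3a gave -0.28 and -0.26 (limma unadjusted p = 0.00479 and 0.0156, adjusted p = 0.371 and 0.468, every probe tested alone). The differences lay below 0 in 33 of 34 genes, Cacna1s being the exception, with a median of -0.12 and a range of -0.30 to 0.11, against 54.9% below 0 and a median of -0.020 over all genes tested. No slide held both groups. With slide as a block, which links them through the APP/PS1 vehicle arrays on slides 1 and 2, the median was -0.05, with 0 channel genes and 4 genes in all called.

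Within groups, the channel genes varied more among APP/PS1 vehicle mice than among the others. The median SD over the 34 genes was 0.180 in WT, 0.302 in APP/PS1 vehicle and 0.180 in UA, beside 0.205, 0.256 and 0.191 over all genes tested. Array 7 of APP/PS1 vehicle was the lowest of its group for 14 of 34 members and array 3 for 11, and array 5 was the highest for 15. The difference in spread was not tested.

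Cacng5 and Scn4b were uneven from mouse to mouse in every group. Cacng5 (a TARP-like gamma subunit) ran from -1.58 to 0.26 in WT (median -0.88), -1.99 to 0.93 in APP/PS1 vehicle (median -0.72) and -1.87 to 0.52 in UA (median -1.59). Scn4b (beta4, a sodium channel subunit abundant in striatal neurons) ran from -0.25 to 2.12 in WT (median 1.19), -0.45 to 1.54 in APP/PS1 vehicle (median 1.08) and -0.36 to 1.72 in UA (median 0.75). The 9 arrays with Cacng5 above -1 were also the 9 with a summed level of the thalamus markers Tcf7l2, Lef1 and Prkcd above 1.5, whatever their group. Neither cut came from the planned tests, so the match is a description only. The thalamus level had no gap at 1.5, with UA array 3 at 1.45 and WT array 1 at 1.53. APP/PS1 vehicle array 1 had the highest Cacng5 (0.93) and the highest thalamus level (2.40). Scn4b followed this order less fully, since WT array 4 had a thalamus level of 2.03 and a Scn4b level of -0.25. The part of adjoining tissue in these levels was not tested.

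**Figure D4:**
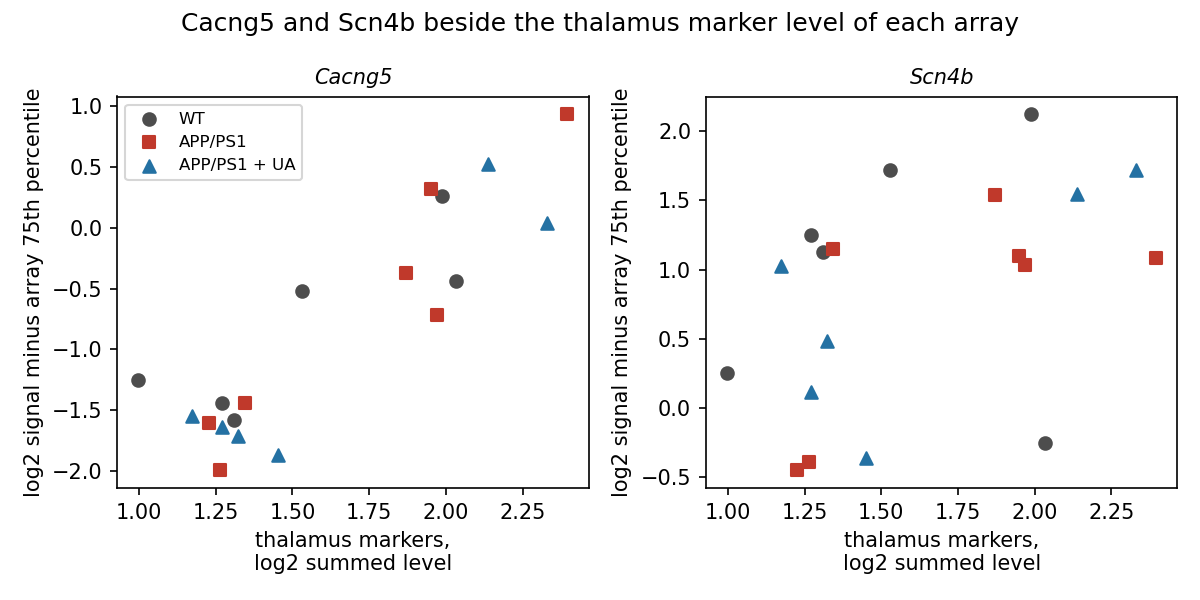
Levels of Cacng5 and Scn4b (y axes, log2 signal minus the array's 75th percentile) against the summed log2 level of 3 thalamus markers on each of 19 arrays. Cacng5 is above -1 on 9 arrays and at or below it on 10, and the 9 are those with a thalamus level above 1.5. Neither cut came from the planned tests. Scn4b scatters more.

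Several genes had more than 1 probe, and the probes did not always run the same way. Of 18 members with several kept probes, all probes had the same sign in 9 between APP/PS1 vehicle and WT, in 7 between UA and APP/PS1 vehicle and in 13 between UA and WT. Cacna1a, for example, gave 0.04, -0.10 and 0.48 (adjusted p = 0.0809 for the last) between genotypes, and Scn8a -0.23, -0.06, -0.02 and 0.18. Which transcripts each probe reads was not analysed here.

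Among 36 genes of proteins that bind, anchor or modulate these channels, 1 was called between APP/PS1 vehicle and WT, and 29 lay below 0 (median -0.15). Over all genes tested, 5.07% were called. The called gene was Fgf14, which encodes an intracellular fibroblast growth factor homologue that binds sodium channel pores at the axon initial segment. Fgf14 ran from -0.11 to 0.42 in WT, -0.59 to 0.17 in APP/PS1 vehicle and -0.05 to 0.41 in UA, lower by 0.43 (SE 0.12, adjusted p = 0.0400) in APP/PS1 vehicle than in WT and at 0.39 (SE 0.12, adjusted p = 0.150) in UA against APP/PS1 vehicle. All 7 APP/PS1 vehicle arrays lay below the WT mean, though the ranges overlapped.

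Of 32 tested genes of calcium stores, pumps, buffers and calcium-dependent channels, 3 were called between genotypes and 20 lay below 0 (median -0.10). The shares over all genes tested were 5.07% called and 2.38% called as lower. Atp2a2, the calcium pump of the endoplasmic reticulum, fell by 0.35 (SE 0.094, adjusted p = 0.0390), and Kcnn2, a calcium-activated potassium channel, fell by 0.34 (SE 0.091, adjusted p = 0.0396). Itpr2, an inositol trisphosphate receptor typical of astrocytes, rose by 0.31 (SE 0.089, adjusted p = 0.0496). None of either list was called in the UA comparisons. Potassium channel genes gave 0 higher and 5 lower of 84 between genotypes (66 below 0, median -0.20). They included Kcnn1, Kcnn2, Kcnn3 and Kcnma1 of the calcium list above, so the call of Kcnn2 is counted in both. AMPA and NMDA receptor genes gave 0 higher and 1 lower of 11 (8 below 0, median -0.13). A median below 0 was thus not particular to the calcium and sodium channels. None of these lists was tested as a set, and differences between these families were not tested.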

How the data were processed

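Agilent Feature Extraction 12.0.3.1 wrote the scanner files with a 2-colour protocol, per the file headers. Their green intensity (Cy3, the hippocampal RNA) had been background-subtracted and dye-normalized by the authors' software within each array, per the file headers. The deposited value table holds a score per spot, which matched the log10 of that intensity centred and divided by its SD within 0.00500 on all 19 arrays (column medians -0.28 to -0.17). Red values were not used here, as the labels describe no red sample.

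After 3671 control spots were left out of 62976 and spots of 1 probe averaged, 56605 probes remained. Accessions matched the RefSeq table of GRCm38.p6 for 32994 probes (22911 symbols). Values were log2 intensity minus the array's 75th percentile. Probes well above background on at least 6 arrays were kept (33450), and the brightest over all arrays stood for a gene. R 4.3.3 with limma 3.58.1 fitted 3 group means over 19 arrays, 2-sided, without a block; the steps were tested on simulated data. Full values are given for called members and, in each role class, for the 2 members of smallest unadjusted p in either of the first 2 comparisons; Scn4b and Cacng5 were added after their spread was seen. Values of 2 members are counted in the family's totals and not reported here. The members and lists were chosen with earlier results of these data known. Alternatives covered the scaling, filter, probe choice, slide, sex, replicate number, variance model, background correction, choroid plexus level and each array left out. The number of arrays limits the precision. Replicate numbers were not taken to pair the samples.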

Additional observations from a re-analysis of the deposited data

Results flagged for a closer look

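In 9 of 96 groups of arrays (32 genes in 3 groups), 1 array lay far from the others of its group, judged by its gap to the nearest array as a share of the group's range at the 95% limit. Chance gives about 1 such group in 20. WT array 3 was apart at the low end for Cacna1g (0.26, the next array at 0.80), Cacna2d1 (3.03, next 3.35), Scn2a (3.67, next 3.98) and Scn3a (1.52, next 1.76), and it was the WT array with the high choroid plexus level. WT array 1 was apart at the low end for Cacna1d (-2.24, next -1.64) and Scn8a (2.07, next 2.52). APP/PS1 vehicle array 3 was low for Cacna1e (-3.55, next -1.63) and Cacng4 (-3.92, next -2.70); on that array both probes were not well above background. Among UA arrays, array 1 was high for Cacna2d3 (3.28, next 2.94).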

How the results depend on the processing

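The median differences of the 34 channel genes kept their sign under every alternative run: -0.26 to -0.14 between APP/PS1 vehicle and WT, 0.03 to 0.16 between UA and APP/PS1 vehicle, and -0.14 to -0.05 between UA and WT. The count of called members in the 2 UA comparisons was 0 under all of them. Between APP/PS1 vehicle and WT the count of 2 fell to 0 with the percentile over probes detected on all arrays, quantile normalization, no filter, the mean of a gene's probes, slide as a block, slide 1 alone, male arrays, the 2 groups alone, the signal before dye normalization and the choroid plexus covariate, and to 1 with the deposited value table. It rose to 4 with probes well above background on all arrays and with an intensity trend, to 5 with sex as a covariate and to 6 with normexp background correction. Calls over all genes rose as well in these settings, from 1298 to 1672, 1572, 1966 and 1865 in that order. With every kept probe tested on its own the count stayed at 2, but only 1 of these was called in the main fit. Cacna1i kept its call (limma adjusted p = 0.0480) and Scn2b did not (adjusted p = 0.0544). Leaving out 1 array at a time gave 0 to 7. The cause of these changes was not tested. The adjusted p of Cacna1i ran from 0.0120 to 0.104 and that of Scn2b from 0.0240 to 0.122 with 1 array left out; both kept their sign in all 35 fits on the signal scale. For named genes that were not called, changes of sign were not counted.

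With the replicate number as a block the count was 0 (Cacna1i -0.52, Scn2b -0.22), and 338 genes were called in all. Deviations of same-numbered arrays from their group means correlated above 0.1 in 4 of 6 pairs between UA and APP/PS1 vehicle. For UA with WT and for APP/PS1 vehicle with WT this held in 2 of 6 pairs each. The median correlations of same-numbered pairs were 0.29, -0.03 and -0.09 in that order, beside -0.07, -0.00 and -0.01 for other pairs. As the labels state no pairs, the numbers were not taken to pair mice. Over all genes, the share of higher among calls between genotypes was 53.0%, against 64.9% with the percentile over detected probes, 69.6% before dye normalization and 60.8% with normexp. Calls over all genes between genotypes numbered 1298, against 804 with the deposited table, 353 with no filter, 76 with slide as a block, 22 within slide 1, 1966 with sex as a covariate, 245 in male arrays, 436 in the 2 groups alone and 635 before dye normalization. Between UA and APP/PS1 vehicle, 1671 genes were called with normexp against 0 in the main setting, and none of them was a channel gene. Normexp and the last 2 signal settings (before dye normalization, choroid plexus covariate) were chosen after seeing the data; normexp on mean signals was not run, as those signals were not used here. The deposited table gave no median on the log2 scale. 6 members could not be compared because they were too dim.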
